A study of Bos taurus with 10 samples.

Results

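S100 proteins are small calcium sensors that belong to the EF-hand family. Calcium binding opens a surface on the S100 dimer through which it attaches to target proteins, and several S100 proteins also leave the cell and act on receptors such as RAGE (gene AGER) and TLR4. In fat, S100B is made by adipocytes as well as by Schwann cells, S100A8 and S100A9 are products of neutrophils and monocytes, and S100A1 is best known from heart and skeletal muscle, where it binds the calcium release channel and the calcium pump of the sarcoplasmic reticulum.

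The S100 genes described here are 10, taken by symbol from the deposited table (S100A1, S100A4, S100A6, S100A8, S100A9, S100A10, S100A11, S100A13, S100A16 and S100B). Values were at hand for 9 of the 10, among 12674 genes in all. S100A6 was not analysed here. The 10 were chosen with their difference between the fat depots already known, in particular that S100A1 and S100B differ in opposite directions. Their values are therefore given as a description, with no test. A further 6 S100 genes (S100A2, S100A3, S100A5, S100A12, S100A14 and S100G) were not chosen in that way and carry the test of the depot difference.

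The samples were intramuscular and subcutaneous fat of 5 adult Angus-cross heifers, with 1 RNA-seq library per heifer and depot, 10 libraries in all. Both depots came from the same animals, and no treatment or genotype separates them. The labels number the samples of each depot 1 to 5, and the same number was taken here to mark the same heifer. The intramuscular samples were fat taken from within muscle, and the subcutaneous samples fat from under the skin. Library totals ran from 9392739 to 14836808 counts in intramuscular fat and from 13776094 to 17685678 in subcutaneous fat. Adipocyte transcripts were abundant in every library. PLIN1, which coats the lipid droplet, was at 2140 ± 745 CPM (counts scaled to library size; SD, n = 5) in intramuscular and 2716 ± 769 in subcutaneous fat, and ADIPOQ, the adipokine adiponectin, at 743 ± 322 and 649 ± 295. Intramuscular library 1 stood apart with the lowest summed level of 19 adipocyte genes, 17484 CPM, against 39064 to 69296 in the other intramuscular libraries and 66651 to 95061 in the subcutaneous ones. Subcutaneous libraries 3 and 5 had the lowest scaling factors, 0.911 and 0.849. Many of the results that rest on these libraries are also given without them.

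S100 transcripts made up 0.185 ± 0.0288% of all counts in intramuscular and 0.271 ± 0.0750% in subcutaneous fat (9 genes, n = 5). Per length of transcript, which allows genes to be set beside each other, S100A10 was the highest of the 9, with 1078 RPKM (counts scaled to library size and gene length) in intramuscular and 1560 in subcutaneous fat. Its rank was 31 in intramuscular and 32 in subcutaneous fat, of 12521 genes. In intramuscular fat S100A11 (284 ± 64.7 RPKM), S100B (222.5 ± 79.1) and S100A4 (202 ± 45.4) came next among the 9. S100A11 was above S100B in 5 of 5 of these libraries, and S100B above S100A4 in 3 of 5. In subcutaneous fat S100B (614 ± 271 RPKM) came second among the 9, then S100A11 (426 ± 129) and S100A4 (269 ± 146), and this order of the 3 held in 5 of 5 libraries. S100G, not one of the 9, had a higher mean than S100A11 and S100B in both depots, at 333 RPKM in intramuscular and 887 in subcutaneous fat. S100A16 was at 96.6 and 129 RPKM. The remaining members were lower. S100A13 was at 25.4 and 37.4 RPKM, S100A9 at 11.8 and 43.0 and S100A8 at 2.99 and 13.9. S100A1 was at 43.3 RPKM in intramuscular fat and at 2.23 in subcutaneous fat, where it was the lowest of the 9. Its rank among all genes was 1807 in intramuscular and 9805 in subcutaneous fat. Without intramuscular library 1 its intramuscular mean was 23.6 ± 12.8 RPKM (n = 4, rank 3253), next to S100A13 at 24.7 ± 9.74, so the order of these 2 genes in intramuscular fat rests on that library.

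**Figure D1:**
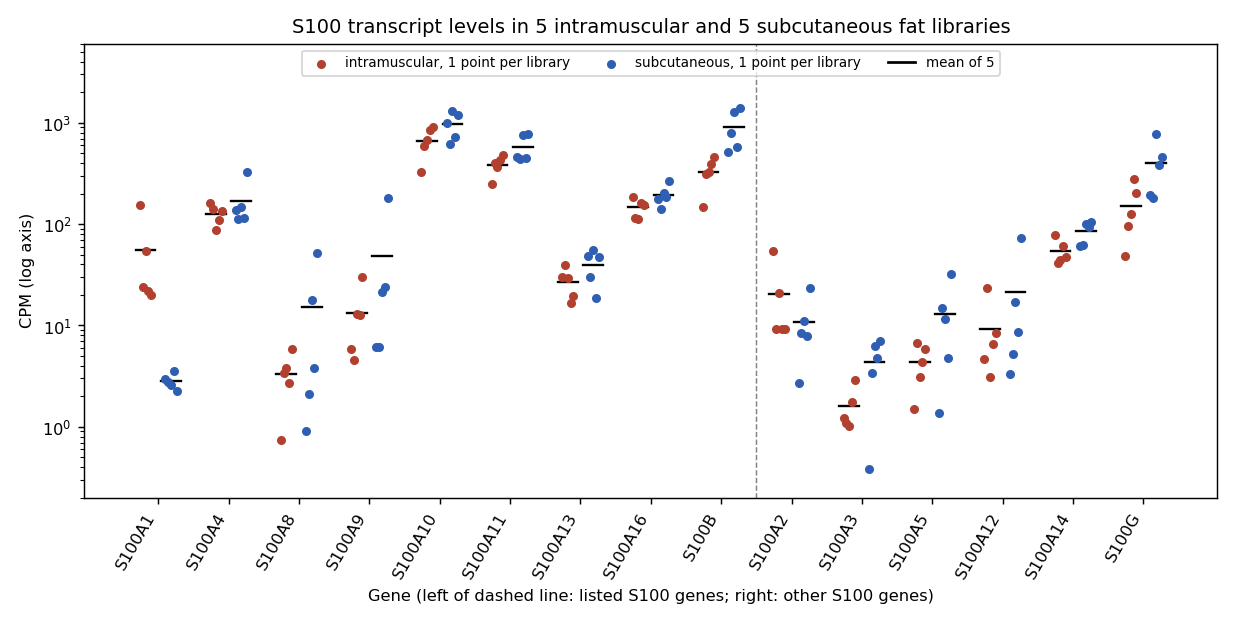
Counts scaled to library size (CPM, log axis) of the S100 genes in each of the 10 libraries, intramuscular and subcutaneous, with the mean of each depot. The 5 intramuscular libraries lie above the 5 subcutaneous ones for S100A1 (19.9 to 155 CPM against 2.25 to 3.58) and below them for S100B (149 to 464 CPM against 511.5 to 1396), and the depots overlap for the other genes.

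S100A1 was 19.4-fold higher in intramuscular fat by mean CPM. The gene lies at chromosome 3, 16751302 to 16755589 on the minus strand. In intramuscular fat of heifers 1 to 5 it was at 155, 24.0, 54.3, 22.0 and 19.9 CPM. In subcutaneous fat of the same heifers it was at 2.97, 2.79, 2.61, 3.58 and 2.25 CPM. The depots did not overlap, the subcutaneous libraries differed by no more than 1.60-fold among themselves, and the intramuscular libraries of heifers 1 and 3 stood above the other three. The means were 55.1 ± 57.8 and 2.84 ± 0.495 CPM (SD, n = 5), and edgeR's log2 fold change was 4.27 ± 0.58 (SE). Within heifers the log2 difference was 5.65, 3.05, 4.31, 2.57 and 3.07, higher in intramuscular fat in 5 of 5. Without intramuscular library 1 the log2 fold change was 3.40, and without intramuscular libraries 1 and 3 it was 2.95 ± 0.25. In bulk tissue, more cells that carry a transcript and more transcript per cell cannot be told apart.

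Transcripts of striated muscle moved with S100A1. Of 74 listed muscle genes, 16 had values, and 15 of these were higher in intramuscular fat (edgeR's quasi-likelihood test, Benjamini-Hochberg adjusted p under 0.05) and none lower. The list was compiled with these data in view. CKMT2, the creatine kinase of muscle mitochondria, was at 313 ± 260 CPM in intramuscular and 0.774 ± 0.547 in subcutaneous fat (edgeR adjusted p = 5.08e-05). PLN, phospholamban, the regulator of the same calcium pump that S100A1 binds, was at 277 ± 127 and 31.0 ± 21.3 CPM (edgeR adjusted p = 0.00101). The 16 genes summed to 4805, 1419, 2626, 898 and 983 CPM in intramuscular and to 102, 91.3, 73.8, 40.4 and 41.1 CPM in subcutaneous fat. Intramuscular libraries 1 and 3, the ones with the most S100A1, were also the ones with the most muscle transcript. As a share of all counts the 16 genes took 0.235 ± 0.191% and 0.00665 ± 0.00293%. Per 1000 CPM of these muscle genes, S100A1 was at 16.9 to 32.3 CPM in intramuscular and at 29.2 to 88.7 CPM in subcutaneous fat. The part of muscle tissue in the S100A1 difference was not tested.

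**Figure D2:**
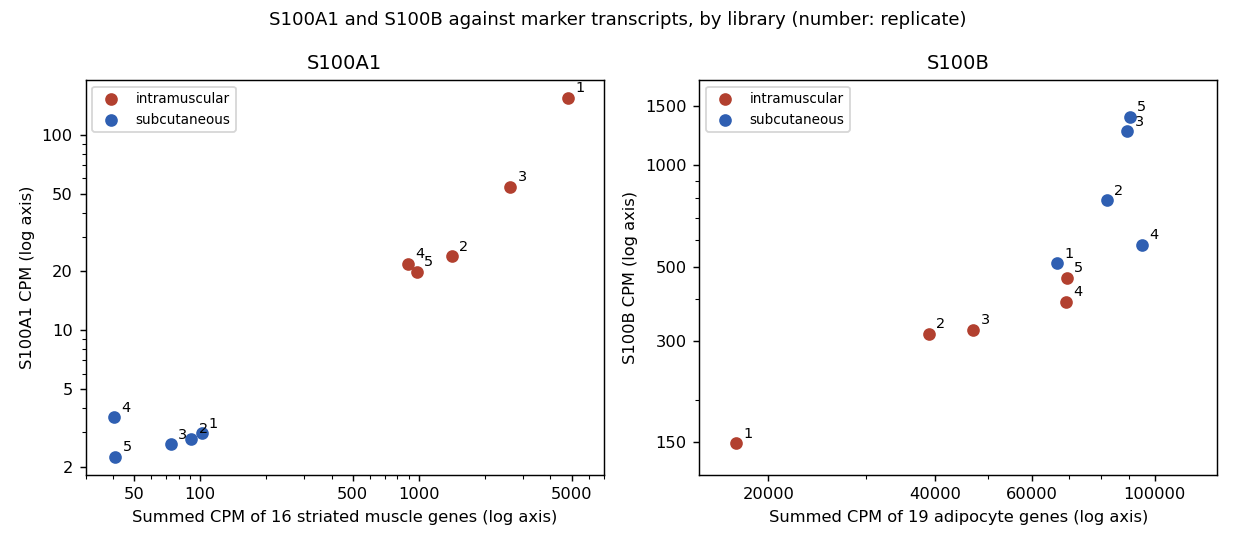
S100A1 against the summed level of 16 muscle genes, and S100B against the summed level of 19 adipocyte genes, each point a library (CPM, log axes). S100A1 is highest in the 2 libraries with the most muscle transcript (155 and 54.3 CPM), and S100B is lowest, 149 CPM, in the library with the least adipocyte transcript.

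S100B was 2.76-fold higher in subcutaneous fat by mean CPM, the opposite direction to S100A1. It is the S100 member known from glia and adipocytes, it is also secreted, and it lies apart from the others at chromosome 1, 146272607 to 146280008 on the minus strand. In intramuscular fat of heifers 1 to 5 it was at 149, 316, 325, 393 and 464 CPM. In subcutaneous fat it was at 511.5, 788.5, 1265, 582 and 1396 CPM. The depots did not overlap, although the highest intramuscular library (heifer 5) came close to the lowest subcutaneous one (heifer 1), and subcutaneous libraries 3 and 5 stood above the rest. The means were 329 ± 117 and 908.5 ± 401 CPM (SD, n = 5), with a log2 fold change of -1.46 ± 0.34 (SE). Within heifers the log2 difference was -1.78, -1.32, -1.96, -0.57 and -1.59, lower in intramuscular fat in 5 of 5. The log2 fold change stayed between -1.62 and -1.26 when any 1 library was left out. It was -1.22 without intramuscular libraries 1 and 3, and -0.93 without subcutaneous libraries 3 and 5.

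Markers of the cells that make S100B did not all move with it. The summed level of 19 adipocyte genes was 48379 ± 21845 CPM in intramuscular and 84640 ± 11084 CPM in subcutaneous fat, the same direction as S100B. FABP4, the fatty acid carrier of adipocytes, was lower in intramuscular fat at 2496 ± 743 against 5952 ± 1874 CPM (edgeR adjusted p = 0.0161), as was CFD, the adipokine adipsin, at 44.9 ± 14.1 against 127 ± 61.0 CPM (adjusted p = 0.00723). These were the 2 of 18 tested adipocyte genes that were called (5 with the heifer as a block, 6 with DESeq2, 0 without intramuscular libraries 1 and 3). Of all genes tested, 5.49% were called lower in intramuscular fat in the main fit. Per 1000 CPM of the adipocyte genes, S100B was at 5.69 to 8.53 CPM in intramuscular and 6.12 to 15.5 CPM in subcutaneous fat, so that the depots overlapped on this scale. Schwann cell and nerve genes went the other way from S100B. Intramuscular fat had more of 9 of the 18 tested and less of 0. MBP, myelin basic protein, was at 19.4 ± 9.35 CPM in intramuscular and 2.28 ± 0.846 CPM in subcutaneous fat (edgeR adjusted p = 0.000544). The part of either cell type in the S100B difference was not tested.

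**Figure D3:**
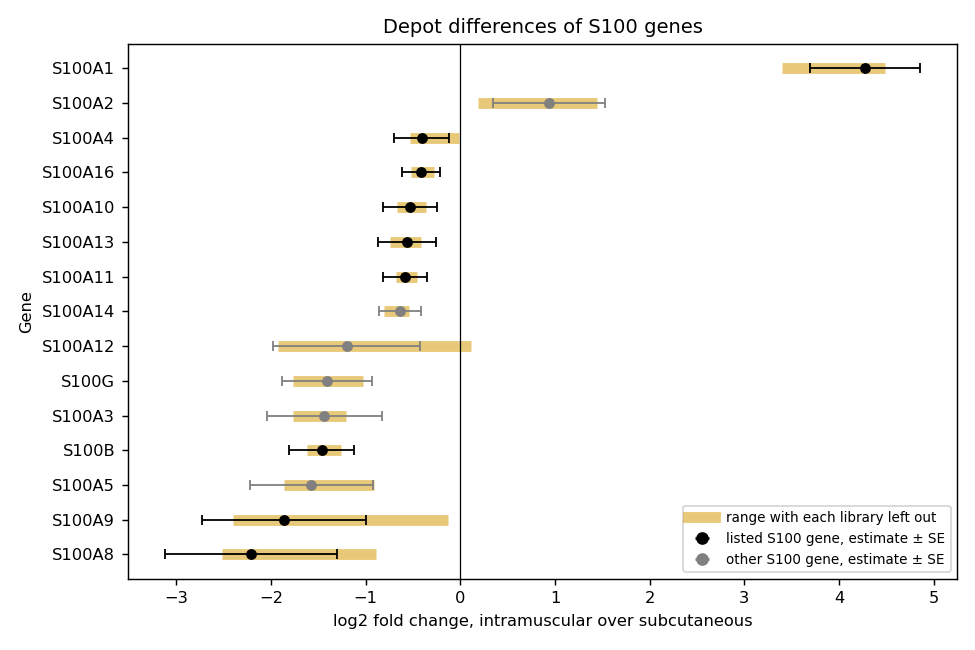
Log2 fold change of each S100 gene, intramuscular over subcutaneous, with its standard error, members in black and other S100 genes in grey, and, as a wide pale bar, the range when any 1 library is left out. S100A1 is at 4.27 and S100A2 at 0.93; the other 13 genes lie below 0.

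Of all 12521 genes tested, 6.75% were called higher and 5.49% lower in intramuscular fat. The 9 members were picked by this difference, so no calls are given for them and nothing is read from the counts that follow. The log2 fold change was negative for 8 of the 9, with a median of -0.56, against a median of -0.04 and 52.9% negative over all genes. The depots did not overlap for 2 of the 9, against 12.9% of all genes (7.85% with intramuscular fat above and 5.04% with subcutaneous fat above). Scaling by library totals alone shifted the median of all genes by 0.17 and the share of calls that were higher in intramuscular fat from 55.1% to 77.7%, with no change of sign among the S100 genes.

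S100A10 and S100A11, the annexin-binding members, were somewhat higher in subcutaneous fat by mean, and both overlapped between depots. S100A10 (p11) forms a tetramer with annexin A2 and keeps its active shape without calcium. It lies at chromosome 3, 18762472 to 18773422. It was at 331, 589, 674, 842 and 906 CPM in intramuscular and at 989, 619, 1314, 729 and 1184 CPM in subcutaneous fat, with intramuscular library 1 lowest and subcutaneous libraries 3 and 5 highest. The means were 668 ± 227 and 967 ± 294 CPM and the log2 fold change -0.53 ± 0.29. That log2 fold change was -0.36 without intramuscular library 1 and -0.22 without subcutaneous libraries 3 and 5. S100A11, which binds annexin A1, was at 248, 398, 366, 431 and 481 CPM in intramuscular and at 464, 440, 766, 445 and 768 CPM in subcutaneous fat. It was lower in intramuscular fat in 5 of 5 heifers, with means of 384.5 ± 87.5 and 576.5 ± 174 CPM and a log2 fold change of -0.58 ± 0.24, while S100A10 was lower in 4 of 5. For S100A11 the log2 fold change was -0.46 without intramuscular library 1 and -0.23 without subcutaneous libraries 3 and 5.

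Of 21 tested partner genes, the annexins and other S100-binding proteins, 1 was lower in intramuscular fat and 0 higher, with a median log2 fold change of -0.13. ANXA1, annexin A1, was the one called, at 442 ± 117 against 962 ± 377 CPM (log2 fold change -1.12 ± 0.28, edgeR adjusted p = 0.0215), and its depots did not overlap. The call was lost without intramuscular library 3 (adjusted p = 0.0548), without intramuscular libraries 1 and 3 (0.130) and without subcutaneous libraries 3 and 5 (0.0660). ANXA2, the partner of S100A10, was at 1571 ± 507 and 3081 ± 1574 CPM and did not pass (edgeR adjusted p = 0.0879). With the heifer as a block 2 partner genes were lower, the second being ANXA6 (297 ± 79.9 and 455 ± 143 CPM; edgeR adjusted p = 0.111 without and 0.0469 with the block). Per length, S100A10 was at 0.966 ± 0.175 times ANXA2 in intramuscular and 0.778 ± 0.282 times in subcutaneous fat, and S100A11 at 1.24 ± 0.162 and 0.885 ± 0.296 times ANXA1. Both ratios overlapped between the depots.

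S100A4, S100A13 and S100A16 also overlapped between depots. S100A4, a partner of non-muscle myosin that is abundant in fibroblasts and leukocytes, was at 161.5, 141, 88.2, 109 and 134 CPM in intramuscular and at 138, 112, 147, 115 and 330 CPM in subcutaneous fat. Subcutaneous library 5 alone lay outside the range of the rest. The log2 fold change of -0.41 ± 0.29 became -0.016 without that library and 0.056 without subcutaneous libraries 3 and 5. Fibroblast and progenitor genes summed to 19435 to 22893 CPM in intramuscular and 25431 to 34196 CPM in subcutaneous fat, and 4 of 18 tested were called lower in intramuscular fat (2 without intramuscular libraries 1 and 3), among them CD34, at 193 ± 22.5 against 350 ± 70.4 CPM (edgeR adjusted p = 0.00842). Their part in the S100A4 values was not tested. S100A13, which takes part in the release of fibroblast growth factor 1 from cells, was at 16.7 to 39.6 CPM in intramuscular and 18.8 to 55.3 CPM in subcutaneous fat (log2 fold change -0.56 ± 0.30). S100A16, reported to promote adipocyte differentiation, was at 111.5 to 187 and 142 to 269 CPM (-0.42 ± 0.20). Each was lower in intramuscular fat in 4 of 5 heifers. Without subcutaneous libraries 3 and 5 the log2 fold change was -0.26 for S100A13 and -0.20 for S100A16. The span of S100A13, introns included, overlaps that of S100A16 by 2814 bases and that of S100A14 by 2056, on the same strand. The listed length of S100A13 is 1065 bases, so any shared transcript is shorter than these overlaps. Reads in a shared stretch of transcript may have been counted for neither or for either gene.

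S100A8 and S100A9, the subunits of calprotectin, were higher in subcutaneous fat by mean. The size of the difference rested on subcutaneous library 5, and for S100A8 on library 3 together with it. S100A8 was at 0.749, 3.38, 3.80, 2.71 and 5.81 CPM in intramuscular and at 0.904, 2.13, 17.8, 3.82 and 52.1 CPM in subcutaneous fat. S100A9 was at 5.90, 4.55, 13.1, 12.7 and 29.9 CPM in intramuscular and at 6.13, 6.16, 21.5, 24.0 and 183 CPM in subcutaneous fat. Heifer 5 had the most of both genes in either depot. The subcutaneous libraries of heifers 1, 2 and 4 lay within the intramuscular range for both genes, and that of heifer 3 did for S100A9. Within heifers S100A9 was lower in intramuscular fat in 5 of 5, by log2 differences of -0.055 to -2.61, and S100A8 in 4 of 5. The log2 fold change was -2.21 ± 0.91 for S100A8 and -1.86 ± 0.87 for S100A9. Without subcutaneous library 5 these values were -0.90 and -0.13, and without subcutaneous library 3 they were -2.15 and -2.05. Without subcutaneous libraries 3 and 5 they were 0.53 and 0.13. They were -1.21 and -0.97 with the heifer as a block and -0.999 and -0.91 with limma's voom. The ratio of S100A9 to S100A8 per length was 4.42 ± 2.35 in intramuscular and 4.06 ± 2.31 in subcutaneous fat.

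The other markers of neutrophils and monocytes did not separate the depots. Of 12 tested, 0 were called by edgeR or DESeq2. At an unadjusted p under 0.05, for which no share of all genes was taken, 2 were lower in intramuscular fat. The summed level of these markers was 107 to 237 CPM in intramuscular and 65.4 to 281 CPM in subcutaneous fat. Subcutaneous library 5, the one with the most S100A8 and S100A9, was the highest. FCN1, a lectin of monocytes, was at 25.7 CPM there and at 1.53 to 6.78 CPM in the other 9 libraries. Subcutaneous library 3, second for S100A8, had the lowest summed level of these markers. Of 16 tested macrophage genes 4 were lower in intramuscular fat (2 without intramuscular library 3, 0 without intramuscular libraries 1 and 3), among them C1QA, a chain of complement C1q, at 37.1 ± 7.03 against 121 ± 55.6 CPM (edgeR adjusted p = 0.00539). Macrophage genes summed to 2896 CPM in subcutaneous library 5 and to 1019 to 2082 CPM in the other libraries. The part of these cells in the S100A8 and S100A9 values was not tested.

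Among the 6 S100 genes that were not members, 0 passed edgeR's test without a block. DESeq2 called 1 lower in intramuscular fat, as did edgeR with the heifer as a block. Over all genes 12.2% were called in either direction by edgeR without a block. At an unadjusted p under 0.05, 4 of the 6 were lower in intramuscular fat. The share of all genes at that threshold was not taken, so nothing is read from this count. S100G, calbindin-D9k, the vitamin D-dependent calcium carrier of intestine and uterus, was the most abundant of the 6 per length, at 333 and 887 RPKM. It was at 48.5, 95.1, 125, 279 and 204 CPM in intramuscular and at 195, 182, 778, 384 and 461.5 CPM in subcutaneous fat, lower in intramuscular fat in 5 of 5 heifers though the depots overlapped. Its log2 fold change was -1.41 ± 0.48 (edgeR adjusted p = 0.0686), and the adjusted p was 0.0136 with DESeq2 and 0.0158 with the heifer as a block. S100G lies on the X chromosome wholly within the span of CTPS2, a gene on the opposite strand. The overlap of 4089 bases is of gene spans, introns included, while the listed length of S100G is 451 bases. The strand setting of the counting is not given, and how far reads of both genes were mixed was not tested. CTPS2, named here for this overlap and after its values were seen, was at 25.9 ± 2.92 and 29.2 ± 4.81 CPM. S100A14 was at 54.5 ± 15.4 and 84.7 ± 21.4 CPM (edgeR adjusted p = 0.0775).

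S100A3 (1.60 ± 0.784 and 4.37 ± 2.64 CPM; edgeR adjusted p = 0.130) and S100A5 (4.32 ± 2.12 and 12.96 ± 11.96 CPM; 0.124) were low in both depots. S100A2, known from keratinocytes, was at 54.2, 9.32, 20.9, 9.29 and 9.33 CPM in intramuscular and at 2.71, 8.43, 11.2, 7.81 and 23.7 CPM in subcutaneous fat. Intramuscular libraries 1 and 3 were the highest of their depot here as for S100A1. The log2 fold change of 0.93 ± 0.59 (edgeR adjusted p = 0.303) was -0.22 without those libraries. Among 6 tested epithelial genes, 2 were called higher and 1 lower in intramuscular fat, and their summed level overlapped between depots at 24.6 to 48.5 and 17.9 to 47.7 CPM. Without intramuscular libraries 1 and 3 there was 1 higher call. The lower call was lost in that setting, with the heifer as a block, with voom, with library totals, without subcutaneous libraries 3 and 5, and in 8 of the 10 fits that left out 1 library. S100A12, a ligand of RAGE from granulocytes, was at 4.68, 23.4, 3.07, 6.57 and 8.38 CPM in intramuscular and at 3.29, 5.20, 16.9, 8.58 and 72.3 CPM in subcutaneous fat. Subcutaneous library 5 again held the highest value. The log2 fold change of -1.20 ± 0.78 (edgeR adjusted p = 0.317) was 0.12 without subcutaneous library 5. Leaving out subcutaneous library 1 brought 4 of the 6 genes past edgeR's threshold, all lower in intramuscular fat.

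The 9 members differed among themselves in how they varied within a depot. Taking each library's deviation from its depot mean of log2 CPM, S100A11 followed S100B (r = 0.95 over 10 libraries), and S100A10 followed S100A11 (0.91). S100A8 followed S100A11 and S100B (both 0.87) as closely as it did S100A9 (0.85). S100A1 ran against S100A10 and S100B (r = -0.76 and -0.75). In intramuscular fat, library 1 had the most S100A1 and the least S100A8, S100A10, S100A11 and S100B. These are descriptions over libraries that share depth and scaling, with no test.

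**Figure D4:**
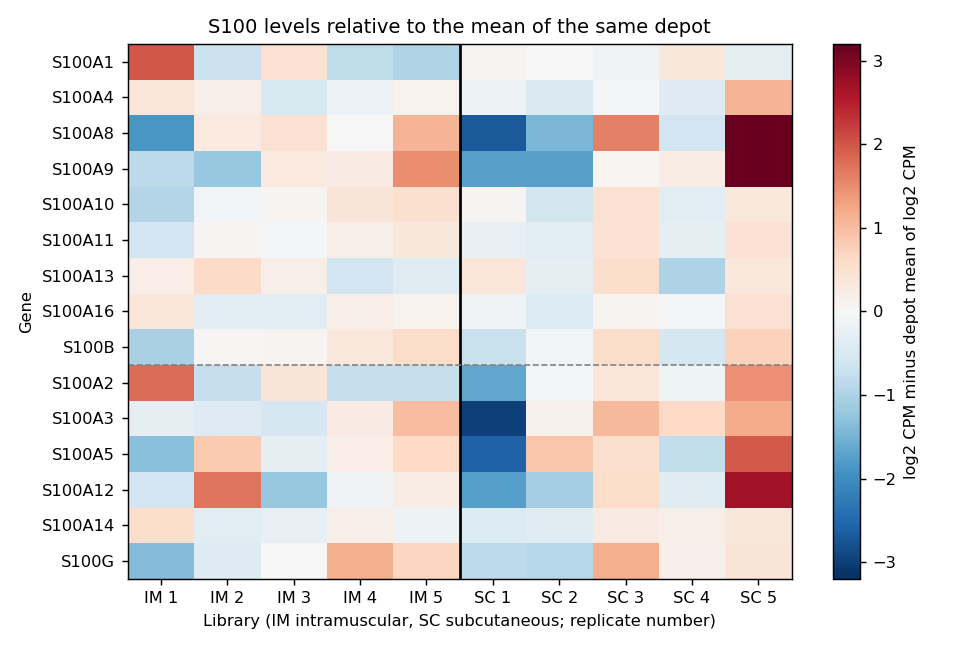
Deviation of each library from its depot's mean log2 CPM for the S100 genes (rows genes, columns libraries, colour in log2 units). Intramuscular library 1 is high for S100A1 (2.00) and low for S100B (-1.05), and subcutaneous library 5 is high for S100A8 and S100A9 (both 3.16).

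The genes whose log2 CPM followed S100A1 most closely over the 10 libraries, of 12268 candidates at a mean of at least 1 CPM, were ZCCHC12 (Pearson r = 0.997), ASB18 (0.992), LBX1 (0.991), SEMA4D (0.988) and TRIM55 (0.987). LBX1 is a homeobox gene of migrating muscle precursors and was listed at 0 in all subcutaneous libraries, against 5.81 ± 5.82 CPM in intramuscular fat. TRIM55 encodes a ring-finger protein of the sarcomere, and SEMA4D a semaphorin. For S100B the closest were ECHS1 (0.988), a mitochondrial enoyl-CoA hydratase, BCAP31 (0.985), a membrane protein of the endoplasmic reticulum, ACADS (0.985), short-chain acyl-CoA dehydrogenase, SPARC (0.984), a matrix protein that binds collagen, and SPNS3 (0.982). Part of each likeness is the depot difference itself. Within depots r was 0.92 to 0.98 for the S100A1 genes and 0.96 to 0.97 for the S100B genes. The genes were picked for their r over these same libraries, so the values within depots are no separate support. In subcutaneous fat ASB18 and LBX1 were at 0, and ZCCHC12 and TRIM55 at a mean of 0.012 CPM. Their r within depots therefore reflects the intramuscular libraries, of which library 1 was the highest for each.

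Of the receptors and signalling genes through which secreted S100 proteins act, 18 were tested, of which 1 rose and 1 fell from subcutaneous to intramuscular fat (median log2 fold change -0.26). Over all genes tested 6.75% were called higher and 5.49% lower in intramuscular fat, so these counts are near the general share. LY96 (MD-2), the co-receptor of TLR4, was lower at 4.38 ± 1.07 against 9.84 ± 2.36 CPM (edgeR adjusted p = 0.0168). ALCAM, an adhesion molecule reported to bind S100B, was higher at 12.4 ± 7.55 against 2.86 ± 1.82 CPM (edgeR adjusted p = 0.0456), a call that was kept in 3 of the 10 fits that left out 1 library. Neither gene passed without intramuscular libraries 1 and 3, or without subcutaneous libraries 3 and 5. AGER, which encodes RAGE, was at 6.65 ± 2.78 and 10.2 ± 2.17 CPM (edgeR adjusted p = 0.180) and TLR4 at 24.2 ± 5.71 and 31.0 ± 6.79 CPM (0.255), so neither receptor passed the test. CD36, a fatty acid transporter and scavenger receptor that binds S100A8 and S100A9 with their lipid cargo, was at 1621 ± 482 and 2461 ± 413 CPM (0.124).

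Other EF-hand calcium sensors showed calls in both directions: of 35 tested, intramuscular fat had more of 5 and less of 2, with a median log2 fold change of -0.03. Among all genes tested 6.75% were called higher and 5.49% lower. EFHD1, a calcium sensor of mitochondria, was higher at 258.5 ± 57.1 against 48.4 ± 17.6 CPM (edgeR adjusted p = 0.000143), and SPARCL1, a secreted matrix protein, at 1356 ± 311 against 231 ± 94.1 CPM (0.000293). Both depots were separate for these genes. The calmodulin genes CALM3 (526 ± 269 against 201 ± 60.4 CPM; edgeR adjusted p = 0.0134) and CALM2 (345 ± 53.5 against 221 ± 48.7; 0.0419) were higher, as was the calcineurin subunit PPP3R1 (181 ± 78.9 against 84.5 ± 16.1; 0.0182). CIB1, an integrin-binding protein, was lower at 37.5 ± 6.13 against 71.7 ± 31.4 CPM (edgeR adjusted p = 0.0357), and so was SDF4, a calcium-binding protein of the Golgi, at 108 ± 20.05 against 163 ± 24.5 CPM (0.0424). CALM2, CIB1 and SDF4 each kept their call in 3 of the 10 fits that left out 1 library, and in 6 of those fits the list had 0 lower calls. Scaling by library totals gave 8 higher and 0 lower. Without intramuscular libraries 1 and 3 the counts were 2 higher and 0 lower, and without subcutaneous libraries 3 and 5 they were 3 and 0.

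On the chromosome, 8 of the 9 members with values lie in 1 stretch of chromosome 3, from 16751302 to 18773422 (2022 kb, coordinates of the deposited table), together with 5 of the other S100 genes. The table lists 13 genes in this stretch, and the 13 are S100 genes. S100A1 and S100A13 stand head to head, with 773 bases between them, and moved differently: S100A1 had a log2 fold change of 4.27 and S100A13 of -0.56. S100B on chromosome 1 and S100G on the X chromosome lie outside the stretch. Of the other 12 S100 genes of the stretch, S100A2 alone had a positive log2 fold change.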

How the data were processed

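RNA-seq was made from 5 intramuscular and 5 subcutaneous fat samples. Per the labels' protocols, total RNA was copied with random primers, the second strand was marked with dUTP, and libraries were sequenced in pairs. The submitters' processing notes name DESeq2 1.42.0, featureCounts 2.0.2, STAR 2.7.11a and Trimmomatic 0.39, in no given order. Neither build nor strandedness of the counting is stated: not given in the sources used here.

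The authors deposited raw counts per gene for 12674 genes, each with at least 100 counts over the 10 libraries. Beside them the deposited table holds a base mean and a mean count per depot (a signal), a log2 fold change with its standard error, a Wald score, a p-value with its adjusted p-value, and gene length, none of which the text prints apart from lengths used in RPKM. Gene names are those of the deposited table, and 15 of 15 S100 symbols match RefSeq.

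From the counts, edgeR 4.0.16 (R 4.3.3) gave CPM with TMM scaling and log2 fold changes from its two-sided quasi-likelihood test (filterByExpr, 12521 genes tested, 153 removed, no block), with Benjamini-Hochberg adjustment at 0.05 over all genes tested. SE is the log2 fold change divided by the square root of F. Correlations used log2 CPM with a prior count of 2. The test was tried on simulated counts first. Alternatives were other scalings, no filter, DESeq2 1.42.0, voom in limma 3.58.1, the heifer as a block, and libraries left out. The fit without subcutaneous libraries 3 and 5 was added after seeing the data. The design text takes both fats from the same animals, and deviations of same-numbered libraries correlate at 0.10 to 0.24, so the numbers were taken as animals.

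The members and the gene lists were chosen with earlier results of these data known. Named are all S100 genes with a row, called genes of each list and up to 6 more in list order, and the 5 genes closest to S100A1 and to S100B. CTPS2 was added to these. Whether the marker lists describe cells or RNA per cell was not tested.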

Additional observations from a re-analysis of the deposited data

Results flagged for a closer look

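Of 30 groups of 5 libraries (15 S100 genes in 2 depots), 6 held a library far from the other 4, by Dixon's test at the 95% level. About 1 of 20 groups of normally distributed values would pass. The values here were CPM without a log, and the groups share the same libraries, so that rate may not hold and the flags are a description. Intramuscular library 1 stood out for S100A1 (155 CPM, the next being 54.3) and for S100A2 (54.2 CPM, next 20.9). Subcutaneous library 5 stood out for S100A4 (330 CPM, next 147), S100A9 (183 CPM, next 24.0) and S100A12 (72.3 CPM, next 16.9). Intramuscular library 2 stood out for S100A12 (23.4 CPM, next 8.38).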

How the results depend on the processing

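Over 18 alternative settings, 264 of 270 S100 log2 fold changes kept their sign. The other 6 are S100A2 without intramuscular libraries 1 and 3 (-0.22), S100A12 without subcutaneous library 5 (0.12, the range being -1.93 to 0.12 when 1 library was left out), and, without subcutaneous libraries 3 and 5, S100A4 (0.056), S100A8 (0.53), S100A9 (0.13) and S100A12 (0.69). ADIPOQ changed sign in that last setting (-0.057 from 0.20). S100A1 was at 2.95 without intramuscular libraries 1 and 3. With the heifer as a replicate block S100A1 was at 3.78 and S100B at -1.45, calls over all genes were 1013 higher and 871 lower (845 and 688 without it), and of the genes named S100G, ANXA6 and SPNS3 (adjusted p = 0.0578) changed their call. DESeq2 called 1369 higher and 1171 lower, and scaling by library totals 330 lower. Leaving out 1 library gave 494 to 1008 higher and 263 to 887 lower, without intramuscular libraries 1 and 3 the counts were 306 and 67, and without subcutaneous libraries 3 and 5 they were 537 and 299, each with fewer samples. The cause of the other shifts was not tested. S100A8, S100A3 and S100A1 in subcutaneous fat rest on few counts per library.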
